A study of Drosophila melanogaster with 16 samples.

Results

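The 10 genes described here are heat shock proteins, molecular chaperones and their regulator: the small heat shock proteins Hsp22, Hsp23, Hsp26 and Hsp27, the inducible Hsp70 family members Hsp70Ba and Hsp68, the constitutive chaperones Hsc70-4 and Hsp83, the co-chaperone DnaJ-1 and the heat shock factor Hsf. They are 10 of the 23990 genes and unmatched transcripts on the array, and every probe that the array design names after one of them was taken, 19 probes in all. The genes were chosen in part from the strong change of Hsp70Ba in antennae, so the values of starved and fed antennae are given for these genes as a description, without a test. Expression was measured in 16 RNA extracts of female Drosophila melanogaster aged 5 to 7 days, each hybridized to a one-colour Agilent array. The 4 groups of 4 arrays were antennae of flies starved for 28 h, antennae of fed flies (0 h), brains of flies starved for 28 h and brains of fed flies. During that time the fed flies had sucrose and the starved flies only a moist tissue. An extract pooled 100 antennae or 50 brains, taken from 50 flies according to the methods. Antennae and brains with the same number may therefore come from the same flies, which the labels do not say. No transgene or mutant allele is given for the arrayed flies, and the labels name no strain. The 4 replicate numbers are also the 4 slides, and every slide carried the groups in the same 4 positions, so that position and group cannot be told apart.

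Heat shock proteins bind unfolded proteins and keep them from aggregating. In unstressed fly cells Hsf is mostly inactive, and on heat or other damage to proteins it binds the promoters of the inducible Hsp genes, whose transcripts rise steeply, while constitutive chaperones serve protein folding at all times. Small heat shock proteins hold unfolded proteins, Hsp70 proteins refold them with the help of J proteins such as DnaJ-1, and Hsp83, the fly Hsp90, matures signalling proteins. Below, the name inducible members stands for the small heat shock proteins, Hsp70Ba and Hsp68. That grouping was not measured here and does not exclude that Hsp83 and DnaJ-1 are inducible too.

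Levels are log2 signals relative to the 75th percentile of the same array, so that 0 is the level of a spot at that percentile, and levels are not compared between probes. All 19 probes were well above background on all 16 arrays, so no member depended on the filter for dim probes. The 75th percentile itself was at signals of 614.3 to 700.4 in starved antennae, 654.4 to 1028.3 in fed antennae, 820.5 to 1011.7 in starved brain and 710.1 to 883.4 in fed brain. Replicates of a group correlated at 0.978 or more, and no spot was saturated. The share of spots well above background was 65.42 to 67.33% in starved antennae, against 67.68 to 70.71% in fed antennae, and 66.42 to 70.17% in starved brain, against 70.88 to 73.57% in fed brain. It was lower on starved arrays without overlap in both tissues, and its part in the results was not tested. The tissues matched their labels, with a summed linear level of 8 olfactory marker genes of 661 to 959 in antennae and 10.3 to 22.6 in brain, and of 8 neuronal genes of 17.2 to 23.6 in antennae and 69.7 to 88.0 in brain. The feeding labels had values against them. Of 8 genes that commonly rise on food deprivation (Pepck1, Thor, InR, Lip4, bmm, Ilp6, whd and Lip3), 0 were called higher and 3 lower in antennae labelled starved (Pepck1, Thor and whd), and 1 higher (Ilp6) and 3 lower (Pepck1, Thor and bmm) in brains labelled starved. Pepck1, which makes glucose precursors and commonly rises on food deprivation, lay between -1.49 and -0.26 in antennae labelled starved, against 1.99 to 2.53 in antennae labelled fed. In brain Pepck1 was at -0.24 to 1.34 on arrays labelled starved, against 3.26 to 3.92 on arrays labelled fed. Pepck1 was picked after its values were seen and the list with earlier results known. Every direction below is that of the labels, and an exchange of the feeding labels would turn every direction between starved and fed. Changes over all genes were of both signs. Of 14901 genes tested in antennae, 1652 were called higher and 2570 lower on arrays labelled starved, and of 15829 in brain, 1836 higher and 3314 lower. Other scalings changed that balance. Higher calls, 39.1% of all calls in antennae and 35.7% in brain, became 60.9% in antennae and 45.9% in brain with quantile scaling, 81.3% in antennae and 58.4% in brain with centring on the array median, and 50.6% in antennae with normexp background correction. Median centring moved the median difference of all genes from -0.02 to 0.19 in antennae and from -0.07 to 0.14 in brain.

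Hsp70Ba, one of several near-identical Hsp70 genes that are nearly silent without stress, showed the widest difference of the 10. Its levels in antennae labelled starved were -1.75, -2.12, -2.18 and -1.51 on slides 1 to 4, against 1.33, 0.74, 1.29 and 2.77 in antennae labelled fed. The groups did not overlap, and the starved arrays differed among themselves by less than 1 log2 unit while the fed arrays spread over 2, with slide 4 on top. The difference of -3.43 (SE 0.39, n = 4 each) is a 10.7-fold lower signal in the arrays labelled starved, and 37 of the 14901 genes, Hsp70Ba included, had a difference that low or lower. Within slides it ran from -2.87 on slide 2 to -4.28 on slide 4. These are the values that chose the gene.

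The choice did not use the brain values, but the brains may be those of the flies whose antennae chose the gene. The brain values may thus not be independent of the choice. In brain Hsp70Ba was at -2.55, -0.58, -2.27 and -2.51 on arrays labelled starved, against -0.38, -0.72, 0.48 and 0.82 on arrays labelled fed. Slide 2 stood apart: its starved brain lay 1.69 above the next starved array and above the fed brain of its own slide, and it alone made the groups overlap. Hsp70Ba fell by 2.03 on the log2 scale (SE 0.51), or 4.07-fold, with an adjusted p of 0.0192 in the limma fit over all probes tested. Without starved replicate 2 the difference was -2.49 (SE 0.37, adjusted p = 0.00527). The call was lost without starved replicate 1 (adjusted p = 0.0516), starved replicate 3 (0.0528) or fed replicate 3 (0.0523), although the difference stayed between -1.93 and -1.83. It was also lost with the slide, which held 1 array of every group, as a block (adjusted p = 0.0586), and the difference within slides was -2.17, 0.14, -2.74 and -3.33 on slides 1 to 4.

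Other Hsp70 copies were on the array. The copies are nearly alike in sequence and a probe of one can bind RNA of another, so that their values are not independent of Hsp70Ba. Hsp70Bc was at -2.03, -2.53, -2.81 and -2.17 in starved antennae, against 0.11, -0.47, 0.21 and 1.38 in fed antennae. Hsp70Bb was at -0.91, -1.19, -1.52 and 0.16 in starved antennae, against 1.01, 0.28, 1.25 and 2.26 in fed antennae. Neither pair of groups overlapped, and slide 4 was again the highest fed array of both. In brain Hsp70Bc was at -1.63, -0.54, -1.63 and -1.73 on starved arrays, against -0.54, -0.62, 0.10 and 0.39 on fed arrays, and Hsp70Bb at -1.34, 0.65, -1.59 and -1.67 on starved arrays, against 0.33, 0.41, 0.65 and 1.09 on fed arrays. Starved brain of slide 2 was the high array for both, as it was for Hsp70Ba. Hsp70Aa, a copy at the other Hsp70 locus, overlapped between starved and fed arrays in both tissues, with differences of -0.63 (SE 0.50) in antennae and -1.17 (SE 0.62, adjusted p = 0.177) in brain. Its starved brain of slide 2 was at 3.27, against 0.24 to 0.96 on the other starved brain arrays.

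Hsp68, an inducible member of the Hsp70 family, was at -1.22, -1.42, -1.46 and -0.81 in starved antennae, against -0.55, -1.05, -0.41 and 0.64 in fed antennae. The groups overlapped through the fed array of slide 2, and the difference was -0.89 (SE 0.33), or -0.56 (SE 0.21) without fed replicate 4. In brain its levels were -1.21, -0.60, -1.51 and -1.59 on starved arrays, against -0.64, -0.94, -0.38 and 0.64 on fed arrays. Here too the starved array of slide 2 reached into the fed range, and the difference of -0.90 (SE 0.35) did not pass the test (adjusted p = 0.0844). Without fed replicate 4 it was -0.57 (SE 0.26, adjusted p = 0.114).

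**Figure D1:**
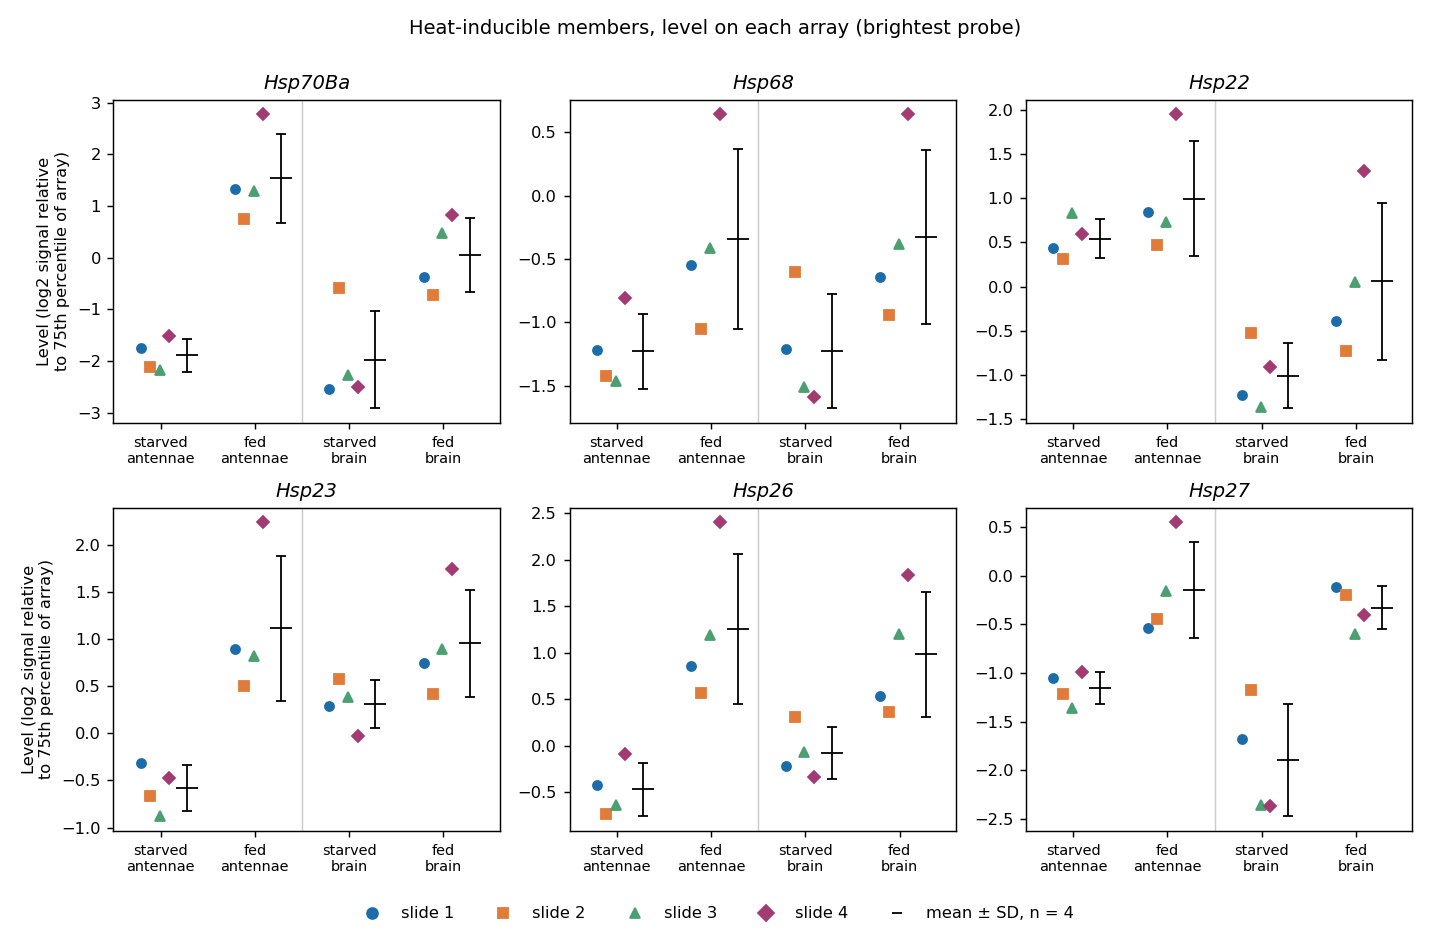
Levels of the 6 inducible members on each array, as log2 signal relative to the 75th percentile of the array, with colours and shapes for the 4 slides and mean ± SD (n = 4) beside each group. Hsp70Ba lies between -2.18 and -1.51 in starved antennae and between 0.74 and 2.77 in fed antennae, and slide 4 is the highest fed array of every gene except Hsp27 in brain.

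The 4 small heat shock proteins lie on chromosome arm 3L in 1 cluster, in the order Hsp22, CG4461, Hsp26, Hsp67Ba, Hsp23 and Hsp27 among the protein-coding genes, and their differences varied in size. Hsp26, a cytosolic small heat shock protein, was at -0.42, -0.74, -0.64 and -0.09 in starved antennae, against 0.86, 0.57, 1.19 and 2.40 in fed antennae. Its difference was -1.72 (SE 0.36), with no overlap. In brain Hsp26 was at -0.22, 0.31, -0.07 and -0.34 on starved arrays, against 0.53, 0.36, 1.20 and 1.83 on fed arrays, and fell by 1.06 on the log2 scale (SE 0.32, adjusted p = 0.0348). The brain groups came within 0.06 of each other on slide 2. Leaving out starved replicate 1, 3 or 4 or fed replicate 3 ended this call, with adjusted p from 0.0761 to 0.0852 and differences from -1.07 to -0.98. The call also ended with the slide as a block (adjusted p = 0.0784), with centring on the array median (-0.86, adjusted p = 0.0832) and without the filter on dim probes (adjusted p = 0.059), and was not made by the test of the methods (0.0763).

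Hsp23, its cytosolic neighbour, was at -0.31, -0.66, -0.88 and -0.47 in starved antennae, against 0.90, 0.50, 0.82 and 2.24 in fed antennae, a difference of -1.69 (SE 0.34) with no overlap. Its brain levels were closer, at 0.29, 0.58, 0.39 and -0.03 on starved arrays, against 0.75, 0.42, 0.90 and 1.75 on fed arrays. The brain difference of -0.64 (SE 0.27) was not called (adjusted p = 0.102), and without fed replicate 4 it was -0.38 (SE 0.17, adjusted p = 0.118).

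Hsp22, a mitochondrial small heat shock protein, had the smallest antennal difference of the inducible members, -0.45 (SE 0.30). Its levels there were 0.44, 0.31, 0.83 and 0.60 on starved arrays, against 0.84, 0.47, 0.73 and 1.95 on fed arrays, and the groups overlapped. Without fed replicate 4 the antennal difference was -0.13 (SE 0.14). In brain Hsp22 was at -1.23, -0.53, -1.36 and -0.91 on starved arrays, against -0.39, -0.73, 0.05 and 1.31 on fed arrays. That difference, -1.07 (SE 0.42), did not pass the test (adjusted p = 0.0819). Without fed replicate 4 it was -0.65 (SE 0.25, adjusted p = 0.0757), and in a fit over all 16 arrays the same difference was called (adjusted p = 0.0425). Hsp22 shares its locus with the small heat shock gene Hsp67Bb, whose own probe was too dim to be tested in either tissue.

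Hsp27, a small heat shock protein of the nucleus, was measured by 4 probes that disagreed. By its brightest probe it was at -1.05, -1.22, -1.36 and -0.99 in starved antennae, against -0.54, -0.44, -0.16 and 0.55 in fed antennae, and at -1.68, -1.18, -2.36 and -2.37 in starved brain, against -0.11, -0.20, -0.60 and -0.40 in fed brain. The groups were separate in both tissues, with differences of -1.01 (SE 0.23) in antennae and -1.57 (SE 0.27, adjusted p = 0.00486) in brain. The other 3 probes gave -0.57 to -0.45 in antennae and -0.73 to -0.57 in brain, overlapped in both, and were not called in brain (adjusted p from 0.128 to 0.301). Which transcripts each probe matches is not given in the sources used here.

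The remaining 4 genes were higher in starved antennae by 0.16 to 0.41 at their brightest probes, a size close to that of the Hsp22 difference and of the 3 dimmer Hsp27 probes in the other direction. Hsp83 was at 5.64, 5.58, 5.57 and 5.62 in starved antennae, against 5.06, 5.11, 5.28 and 5.34 in fed antennae, a difference of 0.40 (SE 0.08). In brain Hsp83 was at 5.49, 5.36, 5.25 and 5.26 on starved arrays, against 5.06, 5.15, 5.14 and 5.56 on fed arrays, and its difference of 0.11 (SE 0.12) was not called (adjusted p = 0.509). The groups were separate in antennae and overlapped in brain, where fed replicate 4 was the highest array. A second, dimmer Hsp83 probe gave 0.19 (SE 0.16) in antennae and 0.02 (SE 0.15) in brain, with overlap in both.

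Hsc70-4, the main constitutive cytosolic Hsp70, was at 5.54, 5.60, 5.60 and 5.61 in starved antennae, against 5.21, 5.23, 5.31 and 5.33 in fed antennae. The difference of 0.32 (SE 0.06) is small in size, yet the starved arrays lay within 0.07 of one another. In brain Hsc70-4 was at 5.22, 5.17, 5.08 and 5.05 on starved arrays, against 4.73, 4.74, 4.78 and 5.14 on fed arrays. Its brain difference of 0.28 (SE 0.11) missed the threshold (adjusted p = 0.0743). Without fed replicate 4, which alone lay in the range of the starved arrays, it was 0.38 (SE 0.07, adjusted p = 0.00752). Of its dimmer probes, probe 2 gave 0.40 (SE 0.09) in antennae and 0.15 (SE 0.14) in brain, while probe 3 gave 0.15 (SE 0.08) in antennae and -0.14 (SE 0.14) in brain.

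DnaJ-1, an Hsp40 co-chaperone of Hsp70, was at 2.66, 2.38, 2.34 and 2.53 in starved antennae, against 2.11, 1.86, 2.27 and 2.02 in fed antennae, a difference of 0.41 (SE 0.11). Its 2 other probes gave 0.61 and 0.49 in antennae, the second with overlapping groups. In brain the starved arrays were at 1.50, 1.63, 1.72 and 1.59, against 1.44, 1.58, 1.64 and 1.55 on fed arrays, so that the DnaJ-1 difference of 0.06 (SE 0.08) was within the spread (adjusted p = 0.619). Its other probes gave 0.26 (SE 0.10, adjusted p = 0.0819) and 0.17 (SE 0.08, adjusted p = 0.149), the second with separate groups, and all 3 DnaJ-1 probes were higher in the starved brain on all 4 slides. Hsf, the transcription factor of the response, was at 1.21, 1.20, 1.28 and 1.26 in starved antennae, against 1.12, 0.94, 1.11 and 1.14 in fed antennae, a difference of 0.16 (SE 0.07). In brain Hsf was at 1.34, 1.33, 1.39 and 1.41 on starved arrays, against 1.30, 1.20, 1.45 and 1.33 on fed arrays, a difference of 0.04 (SE 0.08, adjusted p = 0.685). Its second probe gave 0.21 (SE 0.07) in antennae and 0.14 (SE 0.07, adjusted p = 0.167) in brain.

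**Figure D2:**
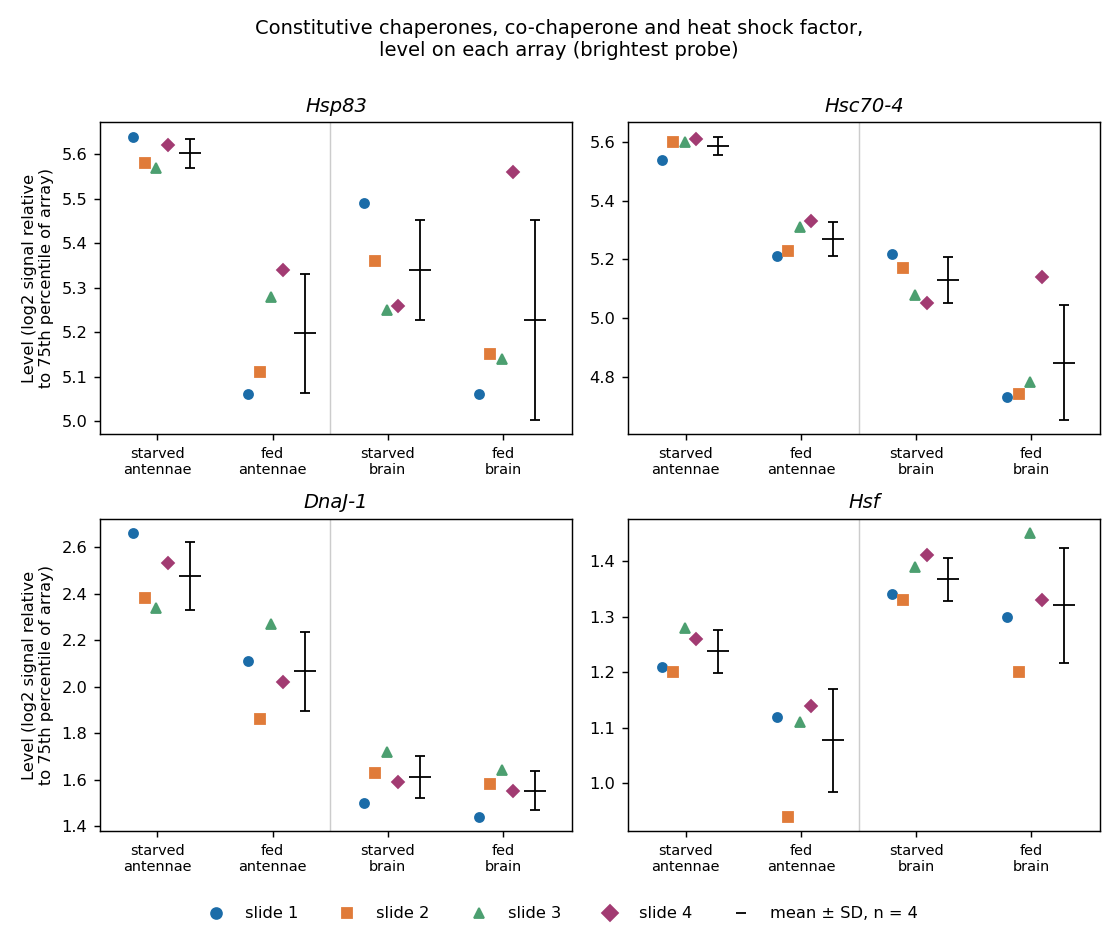
Levels of Hsp83, Hsc70-4, DnaJ-1 and Hsf on each array, as log2 signal relative to the 75th percentile of the array, with colours and shapes for the 4 slides and mean ± SD (n = 4) beside each group. The axes span less than 1.5 log2 units. All 4 genes lie higher in starved than in fed antennae without overlap, and fed brain of slide 4 stands high for Hsp83 and Hsc70-4.

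Counted by gene, 4 of the 10 lay entirely lower in starved antennae (Hsp23, Hsp26, Hsp27 and Hsp70Ba), 4 entirely higher (Hsc70-4, Hsp83, DnaJ-1 and Hsf), and Hsp22 and Hsp68 overlapped. Among all genes tested in antennae, 17.5% lay entirely lower and 13.7% entirely higher, and since the genes were chosen on this contrast nothing is read from the comparison. The direction of the 4 higher genes held under all 14 alternatives tried, with differences from 0.11 to 0.62.

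In brain 3 of the 10 genes were called lower (Hsp26, Hsp27 and Hsp70Ba) and 0 higher by limma, against 20.9% and 11.6% of all genes tested. A count of 3 among 10 is thus little above the background of lower calls. At an unadjusted p under 0.05, 6 were lower, namely all the inducible members, and Hsc70-4 was higher, where 28.1% of all genes were lower and 16.4% higher by that rule. The test of the methods, which treats each probe by itself, called 1 lower after adjustment and 0 higher, against 16.1% and 10.2% of all genes. With the slide as a block 1 was called lower, Hsp27, and 0 higher, where 2729 of 15829 genes tested were lower and 1396 higher. A count of 1 among 10 is not above that background. The median difference in brain was -0.77 over the 10 genes, 6 of them lower and 4 higher, against -0.07 over all genes tested. All 3 called genes had differences over 2-fold. Markers of other tissues also moved in brain. The summed level of 6 fat body genes, of which Fbp1 was not well above background on any array, was 97.8 to 175 in starved brain and 29.6 to 52.4 in fed brain. That of 5 muscle genes was 18.8 to 24.4 in starved brain and 10.7 to 16.7 in fed brain, and that of 3 hemocyte genes 1.23 to 1.65 in starved brain and 0.557 to 0.689 in fed brain. The sums of the other lists overlapped, at 229 to 302 in starved brain and 226 to 307 in fed brain for 6 photoreceptor genes, 11.1 to 323 in starved brain and 14.1 to 181 in fed brain for 7 gut genes, and 30.2 to 37.9 in starved brain and 27.9 to 31.4 in fed brain for 4 glial genes. In antennae the sum of 7 gut genes was 0.529 to 1.08 on starved arrays and 1.11 to 132 on fed arrays, and those of the other lists overlapped. The part of these markers in the differences of the 10 genes was not tested. In bulk RNA, fewer cells of a type and less RNA per cell cannot be told apart.

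**Figure D3:**
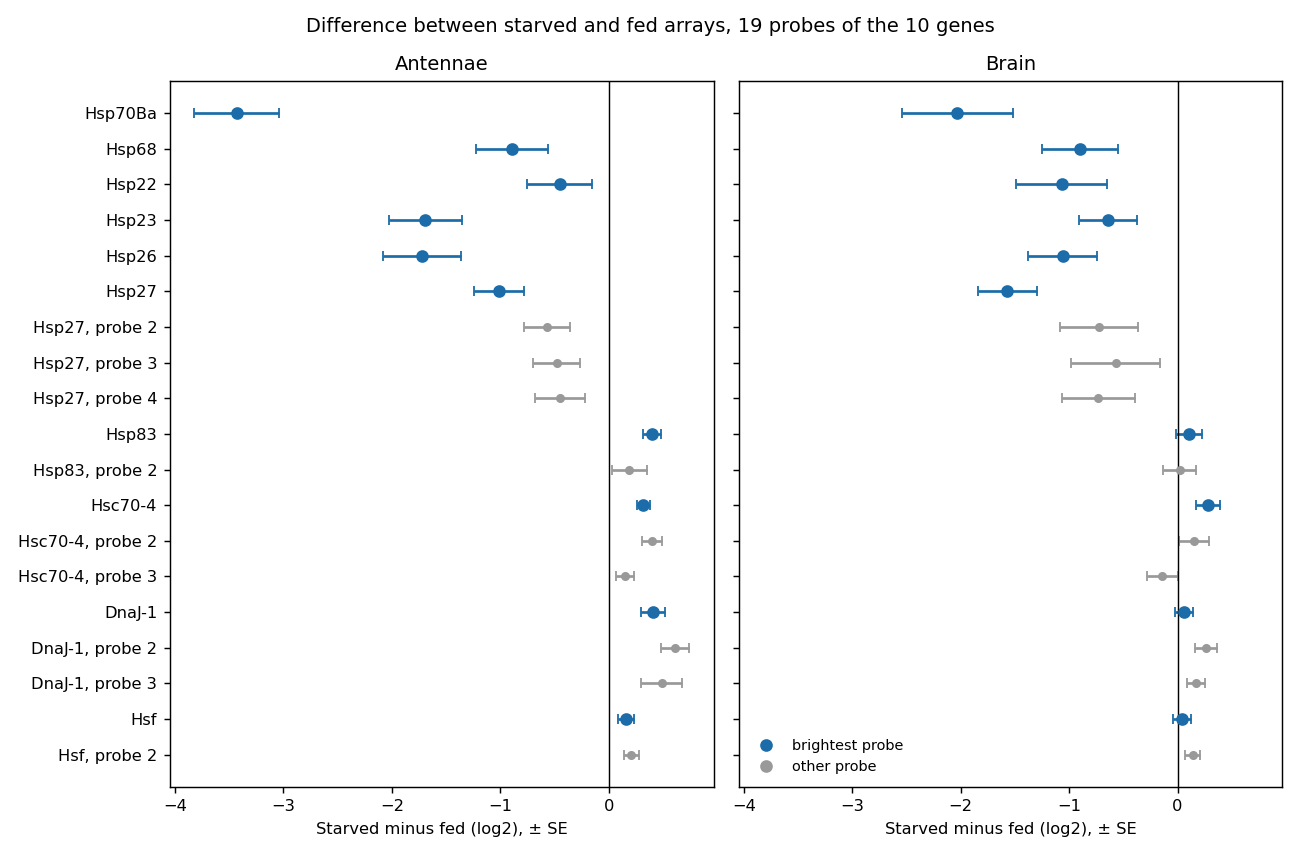
Differences between starved and fed arrays (starved minus fed, log2) for the 19 probes of the 10 genes, in antennae at left and brain at right, with bars of ± SE (n = 4 each) and the brightest probe of each gene in blue. The inducible genes lie left of 0 in both tissues, from -3.43 for Hsp70Ba in antennae to -0.45 for Hsp22 in antennae, and the brightest Hsp27 probe lies left of its other probes.

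Between the tissues of fed flies, DnaJ-1 and Hsc70-4 were higher in antennae and Hsf was lower. These arrays are the fed arrays of the comparisons above. Both tissues may come from the same flies, while the main fit took the arrays as unpaired. DnaJ-1 differed by 0.51 (SE 0.10, adjusted p = 0.00174) and Hsc70-4 by 0.42 (SE 0.10, adjusted p = 0.00604), while Hsf differed by -0.24 (SE 0.08, adjusted p = 0.0267). Of the 9 genes tested here, leaving out Hsp70Ba, 2 were thus called higher and 1 lower, against 33.3% and 41.4% of all genes. The direction for Hsc70-4 depended on the scaling, with -0.03 (SE 0.09, adjusted p = 0.799) under quantile scaling, and its dimmer probes gave 0.01 and -0.17. With the probes of a gene averaged, the Hsc70-4 call was lost (0.09, adjusted p = 0.472). The dimmer DnaJ-1 probes gave 0.32 (SE 0.13, adjusted p = 0.0548), which was not called, and 0.37 (SE 0.15, adjusted p = 0.0484). The Hsf call was lost without fed antennae replicate 2 or 3 or fed brain replicate 3 (adjusted p from 0.0514 to 0.0749) and with median centring, while its second probe gave -0.28 (SE 0.08, adjusted p = 0.0112).

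By their brightest probes, the inducible genes differed between the fed tissues by less than the range of the fed arrays within a tissue. Hsp23, Hsp26 and Hsp68 had differences of 0.16 (SE 0.41), 0.27 (SE 0.45) and -0.01 (SE 0.43). None of them was called, nor under any of 19 alternatives, the slide as a block among them. The SE is that of an unpaired fit, and within slides 1 to 4 Hsp68 differed by only 0.09, -0.11, -0.03 and 0.0. Hsp22 differed by 0.94 (SE 0.48) and was not called (adjusted p = 0.108). Within slides 1 to 4 its difference was 1.23, 1.20, 0.68 and 0.63, and it was called with the slide as a block (SE 0.14, adjusted p = 0.00271) and in a fit over all 16 arrays (adjusted p = 0.0412). Leaving out single arrays moved it to 0.62 (SE 0.45, adjusted p = 0.253) without fed antennae replicate 4 and to 1.35 (SE 0.37, adjusted p = 0.0118) without fed brain replicate 4. Hsp27 again depended on the probe, at 0.18 (SE 0.24, adjusted p = 0.514) by the brightest and 1.04 to 1.10 by the other 3, which were called (adjusted p from 0.0154 to 0.0308). Hsp70Ba averaged 1.53 ± 0.86 in fed antennae and 0.05 ± 0.72 in fed brain (SD, n = 4 each), and its groups overlapped. On starved arrays it averaged -1.89 ± 0.32 in antennae and -1.98 ± 0.94 in brain. Among starved arrays Hsp22 was at 0.31 to 0.83 in antennae, against -1.36 to -0.53 in brain, a difference of 1.55 (SE 0.19, adjusted p = 9.37e-05). DnaJ-1 (0.87, adjusted p = 3e-05), Hsc70-4 (0.46, 0.000187), Hsp83 (0.26, 0.00891) and Hsp27 (0.74, 0.0303) were also called higher there by their brightest probes. Hsp23 ran the other way, at -0.89 (SE 0.16, adjusted p = 0.000987). Calls were common in this contrast, with 5618 of 15481 genes tested higher and 6241 lower.

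Among replicates of 1 group, the inducible genes often shared their highest and lowest arrays, and in part the 4 other genes did too. How often all genes share an array in this way was not counted. In fed antennae, slide 4 was the highest array for all 6 of them and slide 2 the lowest for 5. In fed brain, slide 4 was the highest for 5 of the 6, the exception being Hsp27, and slide 2 the lowest for 5. In starved brain, slide 2 was the highest for all 6. Starved antennae were more mixed, with slide 4 the highest for 4 of the 6 and slide 3 the lowest for 4. Of the 4 other genes, slide 4 was the highest for 3 in fed antennae and 2 in fed brain, and slide 2 for 0 in starved brain. Fed antennae of slide 4 exceeded the next fed array by 1.44 for Hsp70Ba, 1.33 for Hsp23 and 1.21 for Hsp26. Leaving out fed replicate 4, the antennal difference of Hsp70Ba was -3.01, that of Hsp23 -1.32 and that of Hsp26 -1.34, while those of Hsp68 and Hsp22 shrank to -0.56 and -0.13. Since the slide holds 1 array of each group, it cannot be told whether such an array differs through its flies, its extract or its hybridization.

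**Figure D4:**
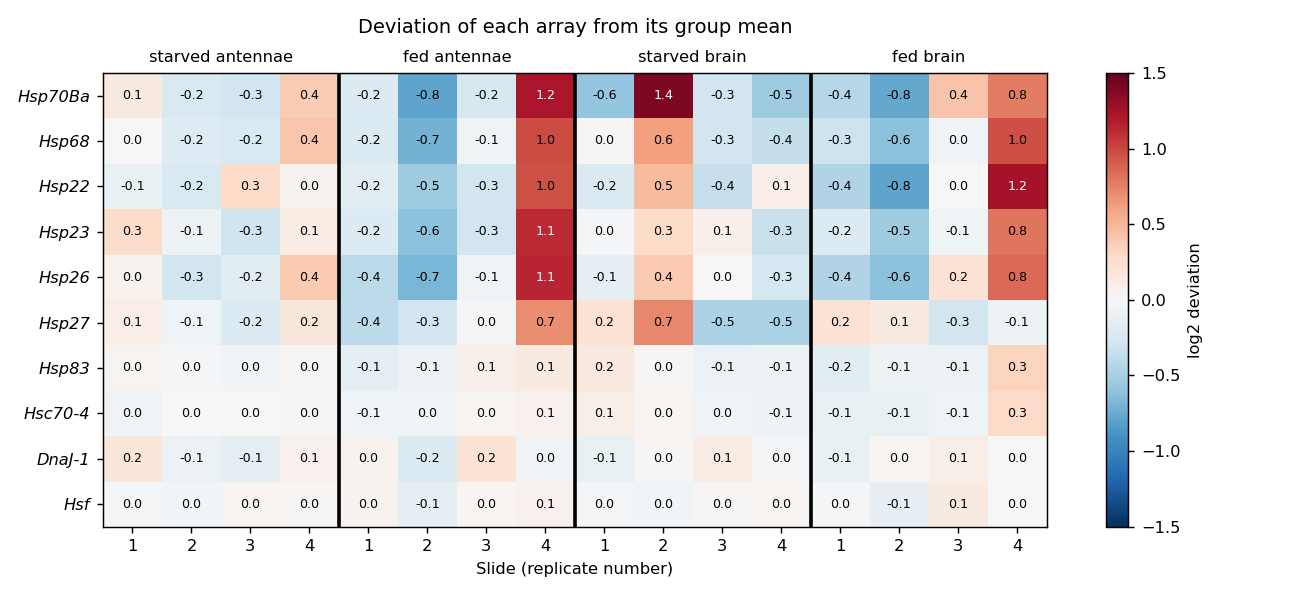
Deviation of each array from the mean of its group (log2) for the 10 genes, with the 4 groups as blocks of 4 slides and red for above the mean. Fed antennae and fed brain of slide 4 and starved brain of slide 2 are red over most inducible genes, while the 4 lower rows stay within 0.33 of their group means.

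The wider chaperone system was followed in a list of 56 other genes, of which 54 had a probe. In antennae 18 of the 53 tested were called higher and 7 lower, or 34.0% and 13.2%, against 11.1% and 17.2% of all genes, with a median difference of 0.13 against -0.02. The 7 include Hsp70Bb and Hsp70Bc, which are not independent of Hsp70Ba, the gene chosen on this contrast. In brain 9 of 51 were called higher and 5 lower, or 17.6% and 9.8%, against 11.6% and 20.9% of all genes, with a median of 0.14 against -0.07. The test of the methods called 15 higher and 7 lower in antennae, where 1490 and 1819 of 14901 genes were. It called 6 higher and 3 lower in brain, where 1611 and 2547 of 15829 genes were. The higher calls moved with the scaling and with single arrays, from 9 without starved antennae replicate 2 to 29 with median centring in antennae, and in brain from 4 without any of several arrays to 19 without fed replicate 4. Higher calls over all genes moved too, in antennae from 1652 to 949 without starved replicate 2 and to 5254 of 14901 with median centring. In brain they moved from 1836 to 1149 without starved replicate 1, 1170 without starved replicate 3 and 1210 without fed replicate 1.

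The subgroups are small, and the same shares of all genes are the background of their counts. By subgroup, 3 of 8 other Hsp70 family genes were called higher and 2 lower in antennae, and 2 of 7 lower in brain, the lower ones being Hsp70Bb and Hsp70Bc in both. The test of the methods called 1 higher and 2 lower in antennae and 0 in brain. The antennal calls of Hsp70Bb and Hsp70Bc are not independent of Hsp70Ba, the gene chosen on this contrast, and nothing is read from them. Of the higher genes, Hsc70-2 had overlapping groups, and Hsc70-5 (0.24) and Hsc70Cb (0.33) each had another probe below 0, at -0.26 and -0.03. Of 7 other small heat shock genes, antennae had 2 called higher and 2 lower, or 1 and 2 by the test of the methods. The 2 genes called lower by limma were dim in antennae, with mean levels of -3.38 and -4.18 on starved arrays. Brain had 0 by limma, 0 also at an unadjusted p under 0.05 and by the test of the methods. The cytosolic chaperonin TRiC, a ring that folds actin and tubulin, had 4 of 8 subunits called higher and CCT3 lower in antennae, but 0 of 8 called by limma in brain, where the median difference was 0.18. At an unadjusted p under 0.05, 2 of the 8 were higher and 1 lower in brain, and the test of the methods called 0. CCT3 had probes of opposite sign in antennae, -0.58 and 0.88. Of 8 J proteins, antennae had 3 called higher, while brain had 4 called higher and 1 lower, or 3 and 1 by the test of the methods. Droj2, called higher in antennae, had another probe at -0.04. In brain Csp, called lower at -0.23, had another probe at 0.24, and jdp, called higher, had others at -0.44 and 0.29. Of 6 genes of the endoplasmic reticulum, antennae had 2 higher and 2 lower and brain 3 higher and 1 lower. Xbp1, the transcription factor of the unfolded protein response, was lower in both tissues, at -0.63 (SE 0.09, adjusted p = 0.00308) in antennae and -0.75 (SE 0.16, adjusted p = 0.0107) in brain. Of the mitochondrial chaperones, Hsp60A was called higher among 7 in antennae, by 0.23 with its other probes at -0.01 and 0.09, and Hsp60D, at a dim probe, lower among 6 in brain. Of the Hsp90 family and its partners, 2 of 7 were called higher in antennae and 1 of 7 in brain, the latter 0 by the test of the methods.

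The largest rises among called genes in antennae were those of Stip1, which links Hsp70 to Hsp90, at 0.69 (SE 0.11, adjusted p = 0.00455), of crc, the fly ATF4 transcription factor, at 0.50 (SE 0.08, adjusted p = 0.00354), and of HIP, an Hsp70 partner, at 0.46 (SE 0.11, adjusted p = 0.0156). Stip1 was at 3.38, 3.44, 3.03 and 3.11 in starved antennae, against 2.40, 2.55, 2.50 and 2.74 in fed antennae. A second crc probe ran the other way, at -0.37. The largest falls were those of Hsp70Bc, at -2.69 (SE 0.36), Hsp70Bb, at -2.07 (SE 0.47), and the small heat shock gene Hsp67Bc, at -1.03 (SE 0.20, adjusted p = 0.0086). Hsp70Ba was chosen on this contrast and the probes of its copies are not independent of it. No p-value is therefore given here for Hsp70Bc and Hsp70Bb, and nothing is read from their calls in antennae. Hsp67Bc was at -4.24, -4.55, -3.73 and -4.19 in starved antennae, against -2.74, -3.39, -3.05 and -3.44 in fed antennae. The starved levels lie below the array medians (-3.39 to -2.93 in the deposited values) and the fed levels around them, so this difference rests on dim signals. In brain the same probe was bright, with a mean of 1.78 on starved and 1.95 on fed arrays. Its brain difference of -0.17 (SE 0.10) was not called by limma (adjusted p = 0.238).

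In brain the largest rises were those of Pdi, a protein disulfide isomerase, at 0.74 (SE 0.10, adjusted p = 0.00215), HIP, at 0.54 (SE 0.12, adjusted p = 0.0129), and Calr, calreticulin, at 0.47 (SE 0.11, adjusted p = 0.0164). Pdi was at 4.42, 4.24, 4.31 and 4.32 in starved brain, against 3.50, 3.47, 3.51 and 3.86 in fed brain, with no overlap. The largest falls were those of Hsp70Bb, at -1.61 (SE 0.50, adjusted p = 0.039), Hsp60D, an Hsp60 family gene, at -1.22 (SE 0.15, adjusted p = 0.00143), and Hsp70Bc, at -1.21 (SE 0.33, adjusted p = 0.0242). Hsp60D was dim, at -5.73, -5.37, -6.0 and -5.93 in starved brain, against -4.38, -4.44, -4.62 and -4.7 in fed brain. Those levels lie below the array medians (-3.39 to -2.93 in the deposited values), so its difference rests on signals near the floor. The calls of Hsp70Bb and Hsp70Bc were lost without several single arrays, starved replicates 1, 3 and 4 and fed replicate 3 for both (adjusted p from 0.0579 to 0.0994), and for Hsp70Bb also without fed replicate 1, 2 or 4. Both were also lost with the slide as a block (adjusted p = 0.072 for Hsp70Bb and 0.0692 for Hsp70Bc) and with the test of the methods (0.085 and 0.0592), and Hsp70Bb without the filter on dim probes (0.065).

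**Figure D5:**
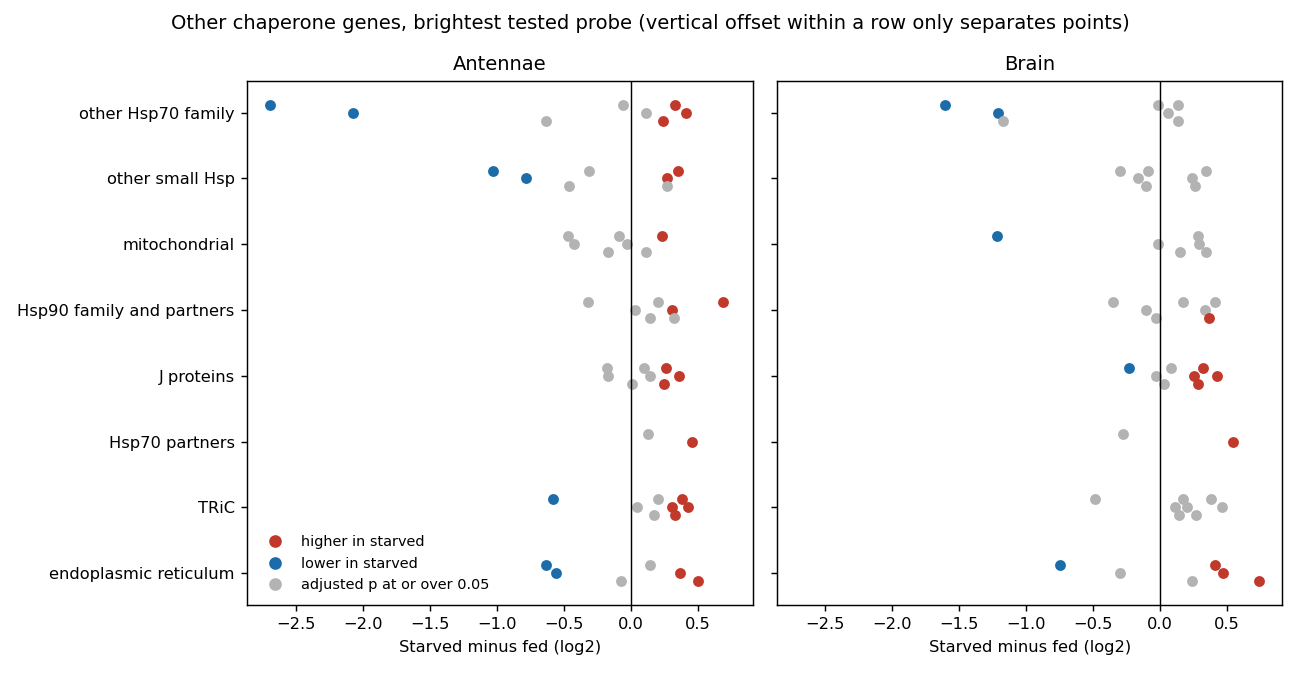
Differences between starved and fed arrays (starved minus fed, log2) for the other chaperone genes, 53 in antennae at left and 51 in brain at right, by subgroup, each at its brightest tested probe. Red points were called higher, blue points lower and grey points neither (limma, adjusted p under 0.05). The 2 blue points farthest left in antennae are Hsp70Bc at -2.69 and Hsp70Bb at -2.07, copies not independent of Hsp70Ba, which was chosen on this contrast.

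Over the 16 arrays, the genes outside the 10 whose level ran most like that of Hsp70Ba were Dpy-30L1, with a Pearson correlation of 0.953, r-l, at 0.947, Hsp70Bb, at 0.944, CG31142, at 0.932, and CG34150, at 0.929, out of 16520 genes. The r-l gene codes for UMP synthase, the last enzyme of pyrimidine synthesis. All 5 were lower on starved than on fed arrays in both tissues, from -2.07 for Hsp70Bb to -0.51 for Dpy-30L1 and CG34150 in antennae and from -1.61 to -0.38 in brain, so that the correlations hold the differences between the groups as well as those within them. Among the 10 genes themselves, the correlation with Hsp70Ba was 0.922 for Hsp26, 0.847 for Hsp27, 0.844 for Hsp68, 0.827 for Hsp23 and 0.673 for Hsp22. Their ranks among the 16520 genes were 7, 82, 88, 113 and 753, so many genes outside the 10 ran as much like Hsp70Ba. For Hsf, Hsp83, Hsc70-4 and DnaJ-1 the correlation was between -0.479 and -0.059. The 16 arrays include the antennal ones whose values chose Hsp70Ba.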

How the data were processed

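RNA of antennae and brains was hybridized to 16 one-colour (Cy3) Agilent arrays of 45020 spots, 1417 of them controls. The authors deposited the scanner output of Agilent Feature Extraction 9.1, whose processed signal intensity was background subtracted and detrended within each array but not scaled between arrays, with mean and background intensities beside it. A second deposited file held log2 values, found to be the log2 of the same signals less that of the 75th percentile over all spots (largest deviation 0). Its column medians ran from -3.39 to -2.93, and it served as an alternative. All columns belonged to samples of the series.

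Groups were taken from the labels. Control and outlier spots were left out, the log2 signal was set relative to the 75th percentile over the other spots, and spots of a probe were averaged. A probe counted as well above background on an array if at least 0.5 of its spots were, and was tested if so on all 4 arrays of at least 1 group compared. Groups were compared by limma 3.58.1 (two-sided, lmFit and eBayes), with p adjusted after Benjamini and Hochberg over the probes tested, at 0.05. A gene is its brightest tested probe over the 16 arrays, its other probes beside it. SE is that of the limma fit. Nothing says that the extracts came from separate cultures beyond being separate samples, so p-values measure the spread between these samples. The number of arrays limits the precision. Names came from a table of Release 6 genes, matching 20665 of 32162 probes. The software was R 4.3.3 with version 1.17.8 of data.table, and Python 3.11.15 with matplotlib 3.10.9, pandas 2.3.3 and numpy 2.4.6. Simulated data were used to check the limma step.

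The members, lists and tests were chosen with earlier results of these data known. Named genes are the members, the 5 other genes most correlated with Hsp70Ba, and per tissue the 3 largest rises and falls among called other chaperone genes. CCT3, Xbp1, Hsp60A, Hsp70Aa, Hsc70-2, Hsc70-5, Hsc70Cb, Droj2, Csp, jdp, Pepck1 and the called genes of the food deprivation list were named after their values were seen. Marker lists were of olfactory, neuronal, photoreceptor, fat body, muscle, gut, hemocyte and glial genes, beside 8 genes commonly raised by food deprivation. Alternatives were a replicate block, the t-test of the methods, normexp background correction (offset 50), quantile scaling, median centring, the 75th percentile over detected probes, no filter, a filter on all 8 arrays, the deposited log2 values, the mean over probes, 1 fit over 16 arrays, a 2-fold threshold, starved arrays for the tissue contrast, and leaving out each array. Those of the other chaperone list were added after the data were seen.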

Additional observations from a re-analysis of the deposited data

Results flagged for a closer look

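Arrays that stood apart were searched for in each group of 4 for all 19 probes, 76 groups in all, by the gap between the extreme array and its neighbour over the range of the group. In 6 of the 76 (7.89%) that ratio was above Dixon's critical value, which chance exceeds in about 1 of 20 groups. Starved brain of slide 2 was high for Hsp70Ba (ratio 0.855) and for probes 3 and 4 of Hsp27 by brightness (0.906 and 0.911). Fed brain of slide 4 was high for the brightest Hsc70-4 probe (0.881). The second DnaJ-1 probe had a high array in starved antennae, slide 4 (0.872), and a low array in fed brain, slide 3 (0.925), while its brightest probe had neither.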

How the results depend on the processing

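In antennae, the counts of genes with separate groups were the same or within 1.5 times under all alternatives, and of 140 recomputed differences of the 10 genes 133 moved by less than 1 SD of the replicates and none changed sign. In brain 172 of 190 kept their call or lack of one, and in fed antennae against fed brain 179 of 190. Members called lower in brain, 3 by the limma fit, were 1 with the replicate block, 1 with the t-test of the methods and from 1 to 3 without single arrays. The 3 calls became 1 without starved replicate 1 or 3 or fed replicate 3. Of 15829 genes tested, 3314 were lower by the limma fit, 2729 with the replicate block and 2547 with the t-test. With the replicate block, which is also the slide, the adjusted p in brain was 0.0586 for Hsp70Ba and 0.0784 for Hsp26, and in the fed tissues 0.00271 for Hsp22. Over all probes, deviations of same-numbered arrays correlated at -0.15 to 0.17 in brain, -0.08 to 0.12 in antennae and -0.07 to 0.29 between the fed tissues. In each, 1 of the 4 pairs was over 0.1, and the main fits did not take the numbers to pair the extracts. Correlations over all probes cannot settle pairing for the 10 genes. On slides 1 to 4, Hsp68 deviated by -0.21, -0.71, -0.06 and 0.98 in fed antennae and by -0.31, -0.61, -0.04 and 0.97 in fed brain. Hsp27 deviated by -0.39, -0.29, -0.02 and 0.7 in fed antennae and by 0.22, 0.13, -0.27 and -0.08 in fed brain. The methods allow that antennae and brains shared flies, and a pairing through them was not tested. Members called higher in brain, 0, were 1 with normexp, 1 with the fit over 16 arrays and from 0 to 1 without single arrays, in each case Hsc70-4. Over all 15829 genes, 1749 were higher with normexp and 2281 in the fit over 16 arrays. Averaging the 4 Hsp27 probes gave -0.90 in brain (adjusted p = 0.0573) and -0.63 in antennae. In the fed tissue contrast, members called higher, 2, were 1 with quantile scaling and 5 on starved arrays, and from 2 to 3 without single arrays. Over all genes, 5311 of 16412 were higher with quantile scaling and 5618 of 15481 on starved arrays. Lower calls over all genes were 6786 of 16412 with quantile scaling and 6240 with median centring. Members called lower in the fed tissue contrast, 1, were 2 with quantile scaling, 0 with median centring and from 0 to 1 without single arrays. Hsc70-4 there turned to -0.03 with quantile scaling.

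Other chaperone genes called higher in antennae, 18, were 29 with median centring, 10 without a filter, 11 in the fit over 16 arrays and from 9 to 15 without single arrays. In brain the 9 higher calls were 5 with quantile scaling, 4 without a filter and from 4 to 19 without single arrays, and the 5 lower calls were 2 with the replicate block, 3 with the t-test, 3 with median centring, 8 with the percentile over detected probes, 3 without a filter, 9 in the fit over 16 arrays and from 2 to 8 without single arrays. All genes called higher in antennae, 1652, were 5254 with median centring, 1068 without a filter and 949 without starved replicate 2; those lower, 2570, were 1153 with normexp, 1443 with quantile scaling and 1207 with median centring. In brain 1836 higher were 1149 without starved replicate 1, 1170 without starved replicate 3 and 1210 without fed replicate 1; 3314 lower were 1828 with median centring and 2189 without starved replicate 3. The cause of these changes was not tested.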
